A study of Mus musculus with 9 samples.

Results

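Transcript levels of 10 endothelial-type junction and receptor genes were followed in hematopoietic stem cells (HSCs) sorted from mouse bone marrow. The genes are *Jam2*, *Jam3*, *F11r*, *Pecam1*, *Cdh5*, *Tek*, *Kdr*, *Eng*, *Robo4* and *Mcam*, 10 of the 56748 genes in the count table. They were chosen by name with their levels in these libraries already known, so the counts of members that moved are a description of these libraries and no independent support. All 10 passed the filter on low counts in each comparison. RNA-seq covered 3 groups of 3 libraries each (n = 3): HSCs of young mice (yHSC, 6 to 10 weeks), and 2 fractions of HSCs from mice of 14 to 16 months (pre-aged HSC, paHSC), with low surface P-selectin (Selp_low) or high surface P-selectin (Selp_high). All mice were female and of a C57BL/6 background, with no transgene or treatment named for them, and the cells were gated as lineage-negative, Sca1+ c-Kit+ CD48- CD150+. The sources used here do not say how many animals went into a library, so the spread between libraries may be partly technical. The deposited counts were used as CPM (each library scaled to one common total) with trimmed mean of M-values (TMM) factors over the 9 libraries, for comparisons of a gene between libraries. CPM per kilobase of gene length (FPKM) was used for comparisons between genes.

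These genes are best known from the lining of blood vessels, and HSCs, which arise from embryonic endothelium, share several of them. Junctional adhesion molecules (JAMs) and PECAM-1 hold neighbouring cells together and guide leukocytes across vessel walls, while VE-cadherin, the product of *Cdh5*, builds the adherens junctions of mature endothelium. TIE2, VEGFR2, endoglin and ROBO4 are receptors or co-receptors through which vessels respond to angiopoietins, VEGF, BMP ligands and guidance cues, and TIE2, endoglin and ROBO4 have been used as markers of HSCs.

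Depth was between 24866975 and 35375310 counts per library, so that the 3 counts which a count of 0 still allows correspond to 0.0848 to 0.121 CPM (counting error only). *Selp*, which encodes the sorted protein, was read at 265 to 652 CPM in the Selp_high paHSCs against 29.4 to 109 CPM in the Selp_low paHSCs, with no overlap. The libraries were not equally pure in other cell types. Summed B-cell markers (11 genes) reached 5841 and 8142 CPM in Selp_low paHSC replicates 1 and 2 but no more than 518 CPM in the other 7 libraries. Summed T and NK cell markers (10 genes) were at 385, 977 and 641 CPM in Selp_low paHSC replicates 1 to 3 and at no more than 176 CPM in the other groups. Summed neutrophil markers (13 genes) reached 215770 CPM in Selp_low paHSC replicate 3, 65265 CPM in yHSC replicate 1 and 43689 CPM in Selp_high paHSC replicate 3. In Selp_low paHSC replicate 2, 10 genes held 44.8% of all counts. In bulk samples, fewer cells of a type and less RNA per cell cannot be told apart.

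The main pattern lay between the fractions of paHSCs. All 10 genes had a fitted fold change above 0 in Selp_high over Selp_low paHSCs, and for 7 of them (*Jam2*, *Jam3*, *F11r*, *Tek*, *Kdr*, *Eng* and *Robo4*) every Selp_high library was above every Selp_low library, which held for 10.3% of the 20370 genes tested. Their estimates lay between 1.34 and 2.40 on the log2 scale. Fold changes and their standard errors (SE) are those of edgeR unless DESeq2 is named as their source, and a call is an adjusted p up to 0.05 with a change of 1 or more on that scale. Against yHSCs the picture split by gene. By the criterion of no overlap between libraries alone, *Jam2* lay above yHSCs in both paHSC fractions, the other JAM genes and *Tek* lay above them in the Selp_high fraction, and *Robo4* lay below them in the Selp_low fraction. Of these differences from yHSCs, those of *Jam2* in Selp_high paHSCs (edgeR and DESeq2) and of *Robo4* (DESeq2) passed a test.

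**Figure D1:**
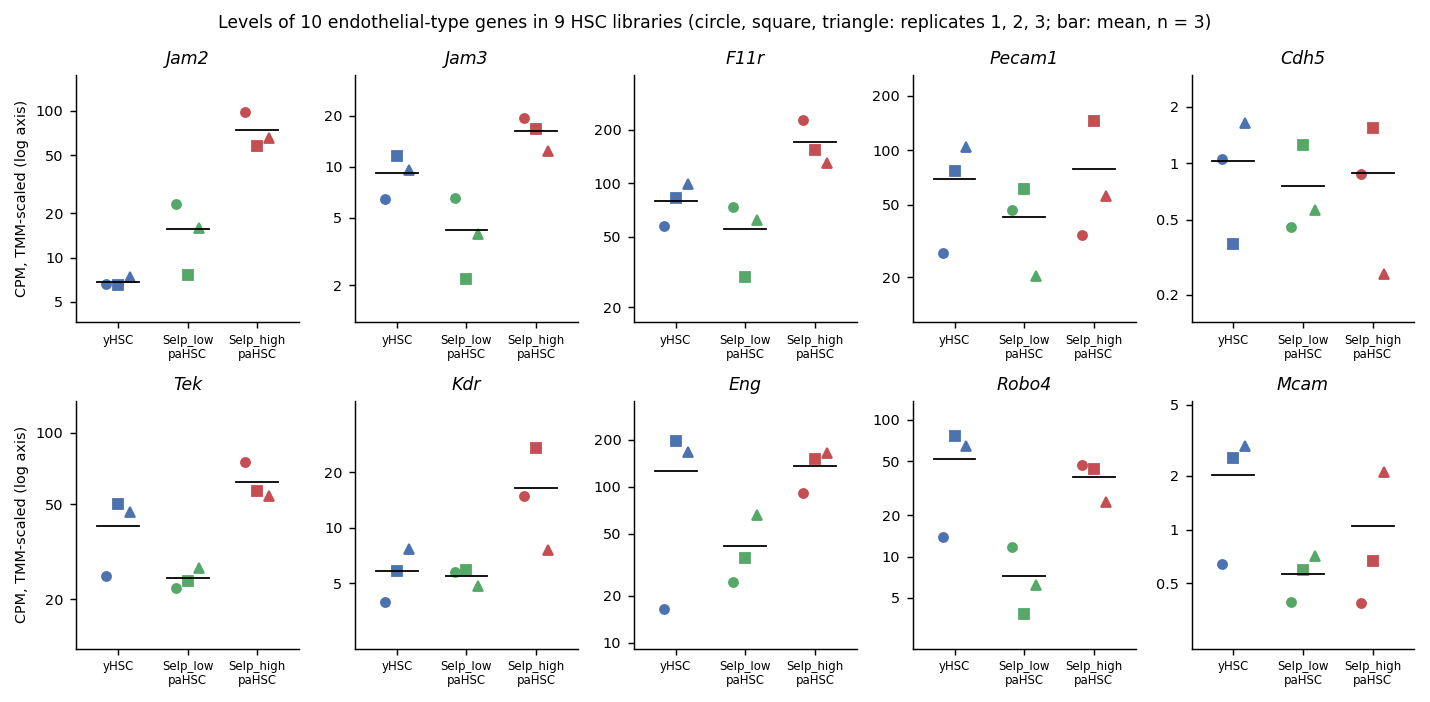
CPM (TMM-scaled, log axis) of each of the 10 genes in the 9 libraries, by group; circle, square and triangle are replicates 1, 2 and 3 and the bar is the mean of 3. The red Selp_high points lie wholly above the green Selp_low points for 7 genes, while *Pecam1*, *Cdh5* and *Mcam* overlap.

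Compared by mean level per length, *F11r* and *Eng* were the most abundant of the set, but *Eng* overlapped *Pecam1* in yHSCs and Selp_low paHSCs. In Selp_low paHSCs *Eng* ran from 6.03 to 16.3 FPKM and *Pecam1* from 3.25 to 9.83 FPKM. Mean *F11r* was 29.9 ± 7.92 FPKM in yHSCs, 20.7 ± 8.62 in Selp_low paHSCs and 64.2 ± 19.1 in Selp_high paHSCs (SD, n = 3 each). *Eng* was at 31.2 ± 23.8, 10.3 ± 5.33 and 33.6 ± 9.81 FPKM in the same order. In yHSCs and Selp_low paHSCs these leading genes overlapped and their order was not resolved, whereas in Selp_high paHSCs each *F11r* library (49.2 to 85.7 FPKM) lay above each *Eng* library (22.4 to 40.9 FPKM). *Pecam1* and *Tek* followed, joined by *Robo4* in yHSCs, with means of 5.18 to 13.2 FPKM. *Jam2* and *Robo4* changed place between groups. *Jam2* went from 1.13 ± 0.0764 FPKM in yHSCs, below *Jam3*, to 12.2 ± 3.56 FPKM in Selp_high paHSCs, above *Jam3* and overlapping *Pecam1* and *Tek*. *Robo4* overlapped *Pecam1* and *Tek* in yHSCs (9.75 ± 6.29 FPKM) but lay below each *Tek* library in Selp_low paHSCs (1.36 ± 0.762 FPKM), where it overlapped *Jam3*. *Kdr* (means of 0.606 to 1.83 FPKM), *Mcam* and *Cdh5* were the lowest of the 10, and *Mcam* and *Cdh5* overlapped in every group.

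The 3 JAM genes encode immunoglobulin-type adhesion proteins that bind each other and leukocyte integrins. *Jam2* (JAM-B, the partner of JAM-C) lies on chromosome 16, 84571011 to 84622816, in the mm39 build named in the submitters' processing notes. Its level was 6.65, 6.54 and 7.39 CPM in yHSC replicates 1 to 3, then 23.2, 7.66 and 15.9 CPM in Selp_low paHSCs and 98.1, 57.4 and 65.5 CPM in Selp_high paHSCs. The 3 groups did not overlap, although Selp_low replicate 2 lay just above the yHSC libraries, and the yHSC libraries varied by only 6.73% (CV). Selp_high paHSCs over yHSCs gave a log2 fold change of 3.40 ± 0.31 (SE), or 10.5-fold, with an adjusted p of 0.0191 by edgeR's quasi-likelihood test and 8.66e-20 by DESeq2. Between the fractions it was 2.23 ± 0.45, or 4.70-fold, with an adjusted p of 0.338 by edgeR and 0.00907 by DESeq2. For Selp_low paHSCs over yHSCs it was 1.23 ± 0.43, with an adjusted p of 0.367 by edgeR and 0.277 by DESeq2, so this step did not pass either test although its libraries do not overlap. The edgeR call against yHSCs was lost when Selp_high replicate 2 or 3, or any of the 3 yHSC replicates, was left out (adjusted p of 0.0826, 0.0664, 0.0509, 0.136 and 0.177), and stayed without Selp_high replicate 1 (0.0307). DESeq2 called *Jam2* in this comparison in all of those fits, with an adjusted p of at most 5.39e-10.

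*Jam3* (JAM-C) lies on chromosome 9, 27008680 to 27066717. It was read at 6.48, 11.5 and 9.55 CPM in yHSCs, 6.57, 2.18 and 4.01 CPM in Selp_low paHSCs and 19.4, 16.8 and 12.4 CPM in Selp_high paHSCs. The Selp_high libraries were the highest of the 9, and the lowest value, in Selp_low replicate 2, rested on 33 counts. The difference between the fractions was 1.92 ± 0.48 on the log2 scale (adjusted p of 0.338 by edgeR and 0.0400 by DESeq2).

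*F11r* (JAM-A, a tight junction protein that pairs with itself across cells) lies on chromosome 1, 171265103 to 171292171. Its yHSC libraries held 57.1, 82.8 and 99.0 CPM, its Selp_low libraries 73.8, 29.6 and 62.3 CPM and its Selp_high libraries 228, 154 and 131 CPM. As for *Jam3*, the Selp_high libraries were above all others, while Selp_low and yHSC libraries overlapped. On the log2 scale the estimate was 1.62 ± 0.41 between the fractions and 1.09 ± 0.31 for Selp_high paHSCs over yHSCs. Neither passed the threshold, with adjusted p of 0.338 and 0.357 by edgeR and 0.0716 and 0.0715 by DESeq2.

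*Pecam1* (CD31, an adhesion receptor of endothelium, platelets and leukocytes; chromosome 11, 106545043 to 106641454) showed no separation of the groups. It was read at 27.0, 77.2 and 105 CPM in yHSCs, 47.0, 61.2 and 20.3 CPM in Selp_low paHSCs and 33.9, 146 and 55.8 CPM in Selp_high paHSCs. Replicate 2 was the highest library of each paHSC fraction. Between the fractions the log2 fold change was 0.87 ± 0.63 (adjusted p of 0.605 by edgeR and 0.663 by DESeq2), and without Selp_high replicate 2 it was 0.06.

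*Cdh5* (VE-cadherin; chromosome 8, 104828257 to 104871143), the gene most closely tied to mature endothelium, was low but above the detection limit throughout. Its libraries held 9 to 62 counts, at 0.371 to 1.64 CPM in yHSCs, 0.460 to 1.25 CPM in Selp_low paHSCs and 0.258 to 1.53 CPM in Selp_high paHSCs. The groups overlapped, with a CV of 56.9% to 71.6% within them, and no comparison passed (log2 fold change between the fractions of 0.23 ± 0.91, adjusted p of 0.936 by edgeR and 0.958 by DESeq2).

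*Mcam* (CD146, an adhesion molecule of endothelium and pericytes; chromosome 9, 44045766 to 44054024) was also low. Its yHSC libraries held 0.645, 2.53 and 2.93 CPM, its Selp_low libraries 0.394, 0.594 and 0.713 CPM and its Selp_high libraries 0.388, 0.667 and 2.09 CPM. A single library, Selp_high replicate 3, raised the mean of its group. Between the fractions the log2 fold change was 0.88 ± 0.89 with it and -0.11 without it.

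Among the receptors, *Tek* (TIE2, the receptor of the angiopoietins; chromosome 4, 94627526 to 94763213) had the narrowest range over the 9 libraries, 3.39-fold. It was read at 24.9, 50.4 and 46.3 CPM in yHSCs, 22.3, 23.9 and 27.0 CPM in Selp_low paHSCs and 75.6, 57.0 and 54.0 CPM in Selp_high paHSCs. The Selp_high libraries lay above all others, and yHSC replicate 1 fell within the range of the Selp_low libraries. The log2 fold change between the fractions was 1.34 ± 0.25 (unadjusted p of 0.000973 and adjusted p of 0.338 by edgeR, adjusted p of 0.0571 by DESeq2).

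*Kdr* (VEGFR2, the main signalling receptor for VEGF-A; chromosome 5, 76093487 to 76139118) was at 3.97, 5.82 and 7.61 CPM in yHSCs and at 5.71, 5.88 and 4.84 CPM in Selp_low paHSCs. The Selp_high libraries held 14.8, 27.1 and 7.54 CPM. They all exceeded the Selp_low libraries, but replicate 3 lay just below the highest yHSC library. The log2 fold change between the fractions was 1.58 ± 0.51, and 1.02 without Selp_high replicate 2 (adjusted p of 0.338 and 0.333 by edgeR).

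*Eng* (endoglin, a co-receptor for BMP9 and TGF-beta; chromosome 2, 32536607 to 32572681) was at 16.5, 197 and 166 CPM in yHSCs, 24.4, 35.1 and 66.0 CPM in Selp_low paHSCs and 90.7, 151 and 166 CPM in Selp_high paHSCs. The low yHSC library was replicate 1, which was also the lowest of its group for *Jam3*, *F11r*, *Pecam1*, *Tek*, *Kdr*, *Robo4* and *Mcam* and had the lowest summed HSC markers of its group (1038 CPM against 1995 and 2296 CPM). The log2 fold change of Selp_high over Selp_low paHSCs was 1.70 ± 0.43 (adjusted p of 0.338 by edgeR and 0.0594 by DESeq2). For Selp_low paHSCs over yHSCs it was -1.53 ± 0.82 with all libraries (adjusted p of 0.547 by edgeR and 0.411 by DESeq2) and -2.11 without yHSC replicate 1 by edgeR (adjusted p of 0.125). DESeq2 called that difference without yHSC replicate 1 (log2 fold change of -2.07, adjusted p of 0.00826).

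*Robo4* (an endothelial member of the roundabout receptors; chromosome 9, 37313193 to 37326411) had the widest range of the set, from 3.83 to 76.6 CPM over the 9 libraries. It was read at 13.8, 76.6 and 64.6 CPM in yHSCs, 11.7, 3.83 and 6.15 CPM in Selp_low paHSCs and 46.9, 43.4 and 24.9 CPM in Selp_high paHSCs. Every Selp_low library lay below all 6 libraries of the other groups. The log2 fold change was 2.40 ± 0.50 for Selp_high over Selp_low paHSCs (adjusted p of 0.338 by edgeR and 0.00682 by DESeq2) and -2.76 ± 0.70 for Selp_low paHSCs over yHSCs (adjusted p of 0.332 by edgeR and 0.00930 by DESeq2). Against yHSCs the Selp_high fraction gave -0.44 ± 0.59, and the libraries overlapped.

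**Figure D2:**
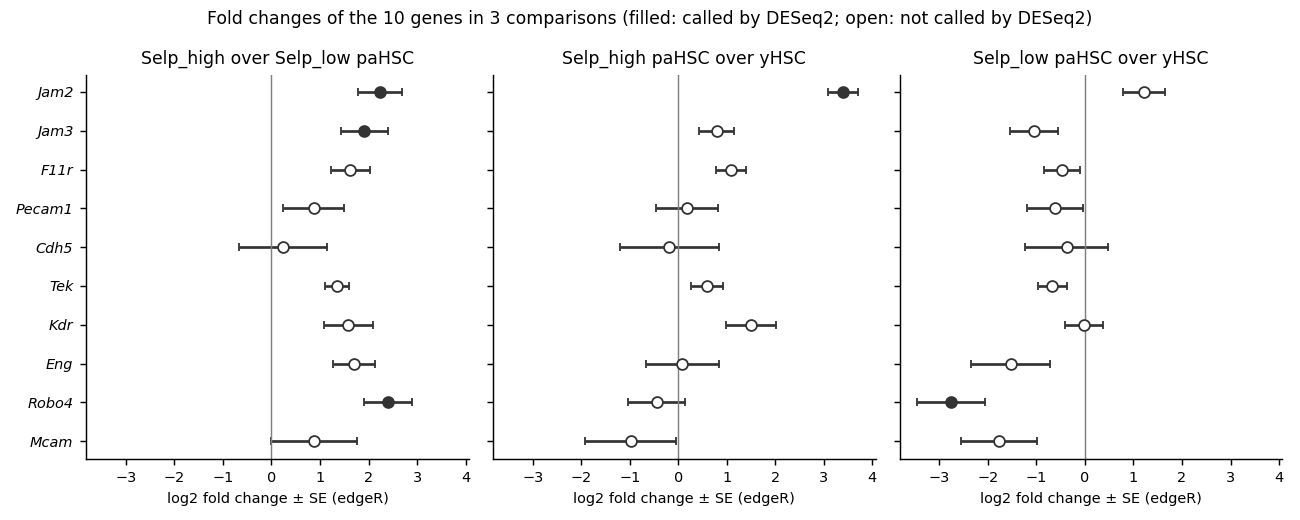
Log2 fold change of the 10 genes in the 3 comparisons, as fitted by edgeR, with bars of 1 SE (n = 3 against 3); filled points are called by DESeq2. All 10 points lie right of 0 in the first panel, with a median of 1.60, and 9 of 10 lie left of 0 in the last.

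Between the fractions of paHSCs, edgeR called 0 of the 10 genes, and it called 0% of all genes higher (0 of 20370, with 2555 genes at an unadjusted p under 0.05 by edgeR). The 7 members whose libraries did not overlap each had an unadjusted p under 0.05 by edgeR. DESeq2 called 3 of 10 higher, *Jam2*, *Jam3* and *Robo4*, against 0.748% of all genes called higher. Residuals of libraries with equal replicate numbers were correlated between the 2 fractions (0.178 to 0.303). Selp_high and yHSC libraries of unequal numbers reached 0.449, so such correlations do not show pairing. With a replicate block DESeq2 called 7 of 10 higher, against 4.33% of all genes. EdgeR with the same block called 0 of the 10. In the blocked DESeq2 fit the adjusted p of the 7 genes ran from 1.59e-10 for *Jam2* to 0.0190 for *Kdr*, while *Pecam1* (0.239), *Cdh5* (0.983) and *Mcam* (0.757) did not pass. The median log2 fold change of the 10 genes was 1.60, beside -0.11 over all genes tested. Leaving out 1 library changed the DESeq2 count: without Selp_low replicate 2 it was 0, without Selp_high replicate 1 it was 1 (*Robo4*), without Selp_low replicate 1 it was 4 and without Selp_low replicate 3 it was 5. The calls over all genes in these fits were, in the same order, 95, 374, 457 and 1255 in either direction, against 589 with all libraries.

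**Figure D3:**
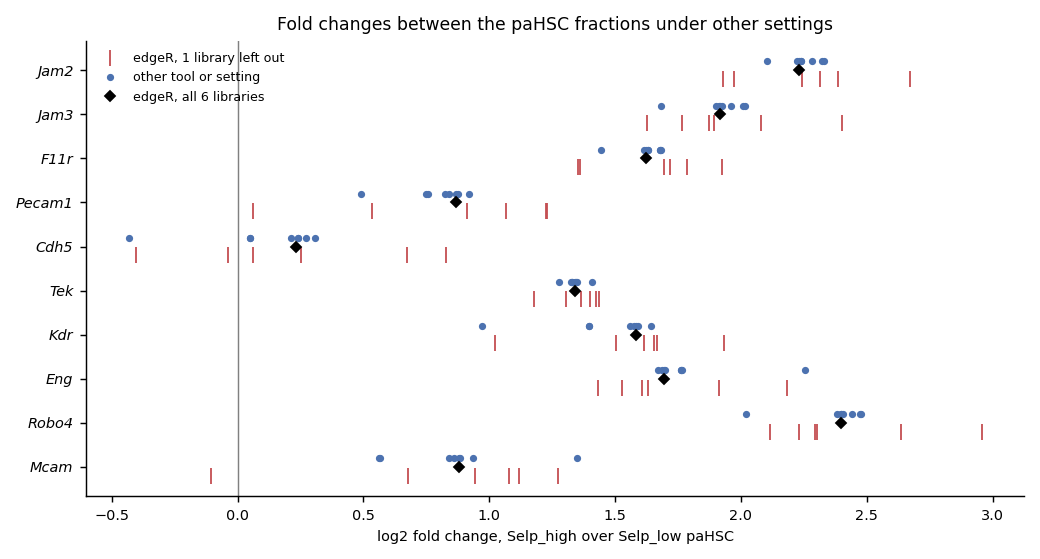
Log2 fold change of Selp_high over Selp_low paHSCs for each gene: black diamonds are edgeR with all 6 libraries, red ticks are edgeR with 1 library left out and blue points are other tools or settings. The values of 8 genes stay right of 0 in each fit drawn, and those of *Cdh5* and *Mcam* cross it.

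For Selp_high paHSCs over yHSCs, edgeR called 1 member higher, *Jam2*, against 0.105% of all genes, and DESeq2 called the same gene, against 1.75%. The Selp_high libraries lay above all yHSC libraries for 4 members, *Jam2*, *Jam3*, *F11r* and *Tek*, where 8.53% of all genes showed this. The median of the 10 genes was 0.39 on the log2 scale, beside -0.03 over all genes. *Eng* (0.09 ± 0.75), *Pecam1* (0.18 ± 0.64), *Cdh5* (-0.19 ± 1.02) and *Robo4* (-0.44 ± 0.59) had estimates smaller than their errors.

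For Selp_low paHSCs over yHSCs, *Jam2* was the only member with an estimate above 0 and the only member with all Selp_low libraries higher, where 9.59% of all genes did so. *Robo4* was the only member with all Selp_low libraries lower, where 6.76% of all genes did so, and the only one that DESeq2 called lower (0.965% of all genes). EdgeR called 0 of the 10, and 0% of all genes lower (0 of 20437 in either direction, with 2306 at an unadjusted p under 0.05 by edgeR). The median of the 10 was -0.65, beside 0.08 over all genes. Without yHSC replicate 1, DESeq2 called 3 members lower, *Eng*, *Robo4* and *Mcam* (adjusted p of 0.00826, 2.69e-05 and 0.0142). In that fit it called 2510 of all genes in either direction, against 517 with all libraries, so the rise was not particular to the members. Both comparisons with yHSCs use the same 3 yHSC libraries and are therefore not independent.

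Marker lists of other cells moved with the same groups. Summed HSC markers (10 genes, of which *Kit*, *Ly6a* and *Slamf1* encode proteins used in the gate) were at 819.9 to 1507 CPM in Selp_low paHSCs, 2176 to 3122.5 CPM in Selp_high paHSCs and 1038 to 2296 CPM in yHSCs. Between the fractions 9 of the 10 HSC markers had estimates above 0, with a median log2 fold change of 1.51, close to the 1.60 of the 10 endothelial-type genes. Summed megakaryocyte markers (13 genes) were at 619 to 2552 CPM in Selp_low and 3125 to 9125 CPM in Selp_high paHSCs, with a median of 2.14 over the 12 genes tested. The B-cell markers had a median of -3.66, and 11 of 11 were below 0. The part of these cells in the differences of the 10 genes was not tested.

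Markers of mature endothelium (20 genes, none of them among the 10) were summed at 95.4 to 161 CPM in yHSCs, 33.3 to 119 CPM in Selp_low paHSCs and 73.1 to 489.6 CPM in Selp_high paHSCs. Between the fractions 17 of the 18 tested had estimates above 0, with a median log2 fold change of 1.87, and DESeq2 called 3 of them higher (0.748% of all genes), *Clec14a*, *Sox18* and *Cldn5*. Selp_high replicate 1 stood apart, led by *Plvap* (106 CPM), *Emcn* (89.4 CPM) and *Fabp4* (86.5 CPM). In that library *Cldn5* was at 44.8 CPM, *Clec14a* at 35.2 CPM and *Sox18* at 18.5 CPM. There *Cdh5* was at 0.879 CPM and *Lyve1* at 0, and *Sox17* was at 0.595 CPM, its highest value in the 9 libraries. *Clec14a*, *Sox18*, *Sox17* and *Lyve1* were named after their values were seen. The part of endothelial cells in the differences of the 10 genes was not tested. *Cldn5* is in this list and among the junction partners below. Without Selp_high replicate 1 the log2 fold changes between the fractions were 1.97 for *Jam2*, 1.77 for *Jam3*, 1.36 for *F11r*, 1.18 for *Tek*, 1.66 for *Kdr*, 1.91 for *Eng* and 2.23 for *Robo4*. DESeq2 then called only *Robo4* among the members. The endothelial markers still summed to 175 and 73.1 CPM in Selp_high replicates 2 and 3. Stromal and pericyte markers (14 genes) summed to 17.8 to 62.6 CPM in Selp_low and 26.3 to 42.1 CPM in Selp_high paHSCs.

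**Figure D4:**
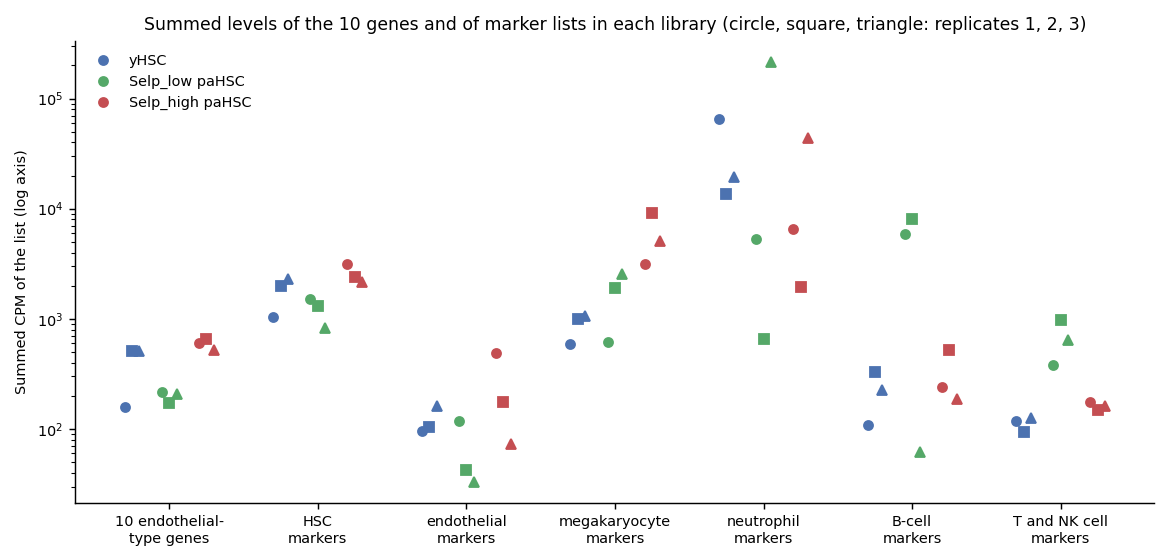
Summed CPM (log axis) of the 10 genes and of 6 marker lists in each library, coloured by group; circle, square and triangle are replicates 1, 2 and 3. The 10 genes sum to 519 to 655 CPM in the Selp_high libraries and 171 to 216 CPM in the Selp_low libraries, and the HSC and megakaryocyte markers also separate these fractions.

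Partner genes of the 10 were followed in lists of the pathways they act in. Among 22 junction partners, 21 were tested between the fractions, 16 had estimates above 0 (median 0.47), and DESeq2 called 2 higher (0.748% of all genes) and 0 lower, while edgeR called 0 (7 at an unadjusted p under 0.05, all higher). The 2 were *Esam*, an adhesion molecule of endothelial junctions and HSCs, and *Cldn5*, the main claudin of vessel tight junctions. *Esam* was at 75.4, 90.0 and 119 CPM in yHSCs, 101, 45.7 and 94.3 CPM in Selp_low paHSCs and 343, 353 and 213 CPM in Selp_high paHSCs. All Selp_high libraries were above the rest, with a log2 fold change of 1.91 ± 0.39 between the fractions (adjusted p of 0.0169 by DESeq2) and 1.66 ± 0.30 against yHSCs (0.000132 by DESeq2). *Cldn5* was at 1.78 to 8.44 CPM in Selp_low and 11.7 to 44.8 CPM in Selp_high paHSCs (log2 fold change of 2.45 ± 0.74, adjusted p of 0.0437 by DESeq2), with its highest value in Selp_high replicate 1. Against yHSCs, DESeq2 called 4 of 22 junction partners higher in Selp_high paHSCs (1.75% of all genes) and 0 lower (1.03%), the same 2 with *Ocln*, which encodes the tight junction protein occludin (2.28 ± 0.43), and *Rap1b*, a small GTPase of junction and integrin signalling (1.59 ± 0.43), named after its values were seen. In Selp_low paHSCs over yHSCs DESeq2 called 0 of these partners in either direction, against 1.99% of all genes higher. Of 5 genes for the integrin subunits that bind JAMs, neither tool called any in the 3 comparisons (1 at an unadjusted p under 0.05 by edgeR, between the fractions).

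Around *Tek*, DESeq2 called 1 of 8 angiopoietin and TIE pathway genes between the fractions (0.748% of all genes called higher), and edgeR called 0 (3 at an unadjusted p under 0.05). Neither tool called any of the 8 against yHSCs (0 at an unadjusted p under 0.05 by edgeR for Selp_high and 2 for Selp_low paHSCs). The called gene was *Tie1*, the co-receptor of TIE2, at 37.3, 21.8 and 56.6 CPM in Selp_low and 188, 168 and 188 CPM in Selp_high paHSCs. Its log2 fold change was 2.23 ± 0.37 (adjusted p of 0.00211 by DESeq2). *Tie1* was at 36.2, 140 and 124 CPM in yHSCs, with replicate 1 again the low library. *Angpt1*, the activating ligand of TIE2, named here after its values were seen, was at 234, 122 and 246 CPM in Selp_low, 338, 469 and 383 CPM in Selp_high paHSCs and 338, 525 and 521 CPM in yHSCs. Ligand and receptor were thus both detected in every library, and the Selp_low libraries were the lowest for *Angpt1*, without passing the test (log2 fold change of 0.98 ± 0.34 between the fractions, adjusted p of 0.350 by edgeR and 0.318 by DESeq2).

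Around *Kdr*, DESeq2 called 1 of 15 VEGF pathway genes between the fractions, *Sh2d2a*, an adaptor of VEGFR2 that T cells also use, which was lower in Selp_high paHSCs (log2 fold change of -4.03 ± 1.47, adjusted p of 0.0191), against 1.53% of all genes called lower. Its Selp_low values were 43.6, 65.7 and 0.788 CPM, high in the replicates 1 and 2 that carried the B-cell markers. Summed T and NK cell markers were at 385, 977 and 641 CPM in the same libraries, the last mostly from *Nkg7*. The part of these cells in *Sh2d2a* was not tested. *Vegfa*, the ligand of VEGFR2, was lower in Selp_high paHSCs than in yHSCs by DESeq2 (-3.01 ± 0.90, adjusted p of 0.00763, against 1.03% of all genes called lower). It was at 20.2, 297 and 122 CPM in yHSCs and at 11.8, 13.4 and 31.2 CPM in Selp_high paHSCs, so yHSC replicate 1 overlapped. In Selp_low paHSCs over yHSCs DESeq2 called *Sh2d2a* higher (4.08 ± 1.36, adjusted p of 0.0151). EdgeR called 0 of the VEGF pathway genes in the 3 comparisons (5 at an unadjusted p under 0.05 between the fractions, 2 for Selp_high paHSCs and 3 for Selp_low paHSCs over yHSCs).

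Around *Eng*, DESeq2 called 1 of 15 endoglin pathway genes between the fractions (1.53% of all genes called lower), *Id3*, an inhibitor of basic helix-loop-helix factors and a target of BMP signalling. *Id3* was at 5.84, 9.37 and 6.35 CPM in yHSCs, 69.1, 70.0 and 24.4 CPM in Selp_low paHSCs and 12.3, 11.6 and 3.53 CPM in Selp_high paHSCs. Its highest values were in Selp_low replicates 1 and 2, which carried the B-cell markers. *Id3* had a log2 fold change of -2.59 ± 0.62 between the fractions (adjusted p of 0.0111 by DESeq2) and 2.99 ± 0.49 for Selp_low paHSCs over yHSCs (0.000136 by DESeq2). *Smad6*, an inhibitory SMAD, was called lower by DESeq2 in Selp_low paHSCs than in yHSCs (-2.10 ± 0.58, adjusted p of 0.0258), and *Smad7*, another inhibitory SMAD, was called lower in Selp_high paHSCs than in yHSCs (-2.49 ± 0.84, adjusted p of 0.0465). EdgeR called 0 of the endoglin pathway genes (1, 2 and 4 at an unadjusted p under 0.05 in the 3 comparisons). Of 10 Slit and Robo pathway genes around *Robo4*, neither tool called any between the fractions (0 at an unadjusted p under 0.05 by edgeR), and DESeq2 called *Robo3* higher in Selp_high paHSCs than in yHSCs (2.82 ± 0.82, adjusted p of 0.0169), with overlapping libraries.

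**Figure D5:**
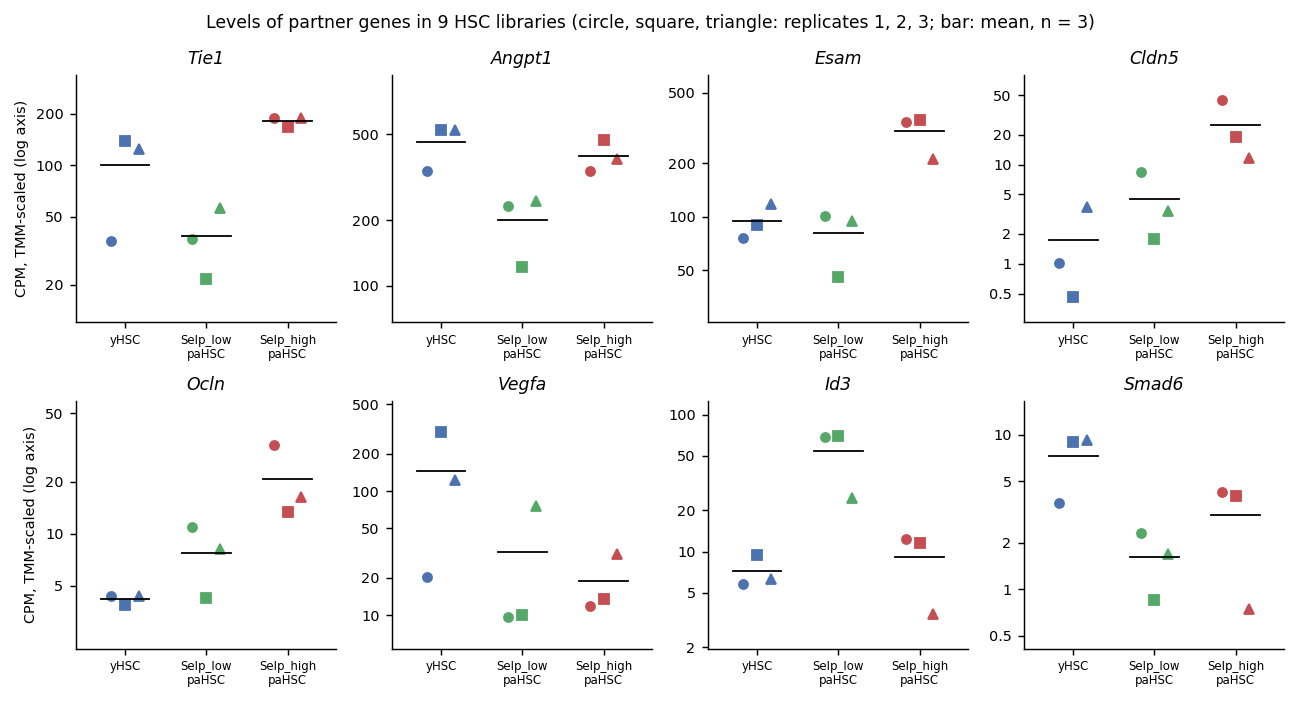
CPM (TMM-scaled, log axis) of 8 partner genes in the 9 libraries, by group; circle, square and triangle are replicates 1, 2 and 3 and the bar is the mean of 3. *Tie1*, *Angpt1*, *Esam*, *Cldn5* and *Ocln* are higher in all Selp_high than in all Selp_low libraries, and *Id3* is lower.

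The protein-coding gene most like each member was taken as the one with the smallest root mean square (RMS) difference of centred log2 CPM over the 9 libraries, among 13112 genes with a mean of at least 1 CPM. For *Jam2* this was *Selp* itself (RMS of 0.35 on the log2 scale, beside an SD of 1.48 for *Jam2*). For *F11r* it was *Tbxas1*, thromboxane synthase (0.13). *Pecam1* was nearest to *Rasa3* (0.25), *Tek* to *Papss1* (0.15), *Kdr* to *Tmem140* (0.22), *Eng* to *Lrfn4* (0.32), *Robo4* to *Npr2* (0.31) and *Mcam* to *Mprip* (0.29). Within the set, *Jam3* and *F11r* were the closest pair (0.31). *Cdh5*, with a mean under 1 CPM, was left out. The points share the libraries and their makeup of cells, and these values carry no test.

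Promoters, from 250 bases before to 50 bases after the start of the gene, were found in RefSeq (GRCm38.p6, another build than that of the count table) for 6 of the 10 genes, *F11r*, *Tek*, *Kdr*, *Eng*, *Robo4* and *Mcam*, and not for *Jam2*, *Jam3*, *Pecam1* and *Cdh5*. *Tek*, *Eng* and *Robo4* are shown because they are the receptors with no overlap between the fractions that have been used as HSC markers. Each runs 5′ to 3′ on the plus strand, the strand of the gene, and capitals mark GGAA, the core of ETS factor motifs, or its reverse complement TTCC. They are at chr4:94739039-94739338 (*Tek*), chr2:32646345-32646644 (*Eng*) and chr9:37401722-37402021 (*Robo4*).
Tek: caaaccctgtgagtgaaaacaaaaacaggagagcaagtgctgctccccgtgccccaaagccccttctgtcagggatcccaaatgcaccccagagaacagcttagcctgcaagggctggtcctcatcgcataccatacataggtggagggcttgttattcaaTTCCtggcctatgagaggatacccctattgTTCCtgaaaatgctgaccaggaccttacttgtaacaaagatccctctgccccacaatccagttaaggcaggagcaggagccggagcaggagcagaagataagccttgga
Eng: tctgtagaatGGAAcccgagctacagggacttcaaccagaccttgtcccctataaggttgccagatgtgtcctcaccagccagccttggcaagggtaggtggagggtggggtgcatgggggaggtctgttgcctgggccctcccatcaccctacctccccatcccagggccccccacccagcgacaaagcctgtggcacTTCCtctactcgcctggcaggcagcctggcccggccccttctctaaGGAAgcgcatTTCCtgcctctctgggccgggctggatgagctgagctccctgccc
Robo4: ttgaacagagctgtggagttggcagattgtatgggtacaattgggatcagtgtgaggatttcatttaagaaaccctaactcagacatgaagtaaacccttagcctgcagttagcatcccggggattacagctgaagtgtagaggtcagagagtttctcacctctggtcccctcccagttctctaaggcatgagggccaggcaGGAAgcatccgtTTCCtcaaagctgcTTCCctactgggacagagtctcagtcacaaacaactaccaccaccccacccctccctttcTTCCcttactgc
GGAA was found on either strand in 6 of the 6 promoters, with 4 matches each for *Eng* and *Robo4* and 2 for *Tek*. It was also in 96% of all 32851 promoters of this length, so its presence does not set the 6 apart. The motif of GATA factors, spelled AGATAA, was found on either strand in 1 of the 6, *Tek*, and in 11.2% of all promoters, and that of RUNX factors, spelled TGTGGT, in 0 of the 6 and in 16.8% of all.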

How the data were processed

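RNA-seq was analysed in the 9 libraries of sorted mouse HSCs. The authors deposited raw counts of reads for 56748 genes, beside gene positions and lengths. Per their methods, cDNA came from a kit for very low RNA input, adapters were removed by fastp, HISAT2 (v2.2.1) placed the reads and featureCounts (v2.0.6) counted them. The submitters' processing notes name the build mm39. Neither the annotation release nor the strand setting of the counting is given in the sources used here, so overlapping or antisense genes may share reads.

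Counts were analysed in R 4.3.3 with edgeR 4.0.16 (TMM factors, filterByExpr by group, quasi-likelihood test with the legacy setting), each pair of groups alone, with Benjamini-Hochberg adjustment over all genes tested and the thresholds of the study: an adjusted p up to 0.05 with a log2 fold change of 1 or more in size. The SE is the absolute log2 fold change divided by the root of the F statistic. DESeq2 1.42.0, the tool of the study, was an alternative, on the table without filter, as were limma 3.58.1 (voom with quality weights), the newer quasi-likelihood setting, RLE factors, no filter, 1 fit of all 9 libraries, a replicate block and each library left out. DESeq2 with the block or with a library left out was added after the data were seen. Residuals of equal replicate numbers correlated at 0.178, 0.276 and 0.303 between Selp_high and Selp_low paHSCs, all above the 0.1 taken as pairing. Unequal numbers gave -0.245 to 0.0252 between these fractions. Equal numbers gave -0.417 to 0.0917 with yHSCs, which were not taken as paired. But Selp_high replicate 1 with yHSC replicate 2 reached 0.449, and Selp_high replicate 2 with yHSC replicate 1 reached 0.406. Those libraries come from mice of different ages, so a correlation above 0.1 does not show pairing. Python 3.11.15 (matplotlib 3.10.9) drew the figures. Steps were tested on simulated data.

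The members and lists were chosen with earlier results of these data known. Named were all members, *Selp*, at most 3 called genes per pathway list and comparison, the nearest gene of each member (that of *Jam3* is not reported here) and the highest genes of marker lists. Erythroid, monocyte and macrophage, and T and NK cell markers were also summed: their medians between the paHSC fractions were -0.51, 1.66 and -2.63 on the log2 scale, with 0, 1 and 0 genes called higher and 1, 0 and 3 called lower by DESeq2. For the neutrophil markers the median was -1.79 with 0 called of the 5 that DESeq2 gave an adjusted p, and for the stromal and pericyte markers it was -0.07 with 1 called higher. Depth ran from 24866975 to 35375310 counts per library, and no table columns were left out.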

Additional observations from a re-analysis of the deposited data

How the results depend on the processing

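Between the paHSC fractions, 8 of the 10 genes kept their direction in all 20 other fits. The number of members called by edgeR, 0, became 3 with DESeq2 (*Jam2*, *Jam3*, *Robo4*), 2 with no filter on low counts (*Jam2*, *Robo4*) and 7 in DESeq2 with the replicate block, and it ran from 0 to 5 in DESeq2 with a library left out (0 without Selp_low replicate 2, 1 without Selp_high replicate 1, 3 without Selp_high replicate 2 or 3, 4 without Selp_low replicate 1, 5 without Selp_low replicate 3). *Cdh5* turned to -0.43 with voom quality weights, and with a library left out it ran from -0.40 to 0.83 and *Mcam* from -0.11 to 1.27 by edgeR, while DESeq2 gave *Cdh5* -0.36 and -0.025 without Selp_high replicate 2 and Selp_low replicate 1 and *Mcam* -0.093 without Selp_high replicate 3. For Selp_high paHSCs over yHSCs, the 1 call (*Jam2*) became 0 with the replicate block in edgeR, ran from 0 to 1 with a library left out by edgeR and from 1 to 3 by DESeq2. With voom quality weights *Pecam1* turned to -0.34 and *Eng* to -0.020. With a library left out, *Pecam1* ran from -0.66 to 0.52, *Eng* from -0.43 to 0.61, *Cdh5* from -0.84 to 0.27 and *Robo4* from -0.88 to 0.0053 by edgeR. By DESeq2, *Pecam1* was at -0.65 and -0.16 without Selp_high replicate 2 and yHSC replicate 1, *Eng* at -0.040 and -0.40 without Selp_high replicate 3 and yHSC replicate 1, *Cdh5* at 0.24 and 0.19 without Selp_high replicate 3 and yHSC replicate 3, and *Robo4* at 0.022 without yHSC replicate 2. For Selp_low paHSCs over yHSCs the 0 calls became 1 (*Robo4*) with DESeq2, with no filter and in DESeq2 with the replicate block, and 0 to 3 in DESeq2 with a library left out. *Kdr* turned to 0.0073 with the replicate block in edgeR and ran from -0.29 to 0.21 with a library left out by edgeR, and *Cdh5* from -0.99 to 0.11, while DESeq2 gave *Kdr* 0.029 and 0.098 without Selp_low replicate 3 and yHSC replicate 3. With a library left out, DESeq2 calls over all genes ran from 95 to 2400 between the fractions, against 589 with all libraries. For Selp_high paHSCs over yHSCs they ran from 358 to 836, against 596. For Selp_low paHSCs over yHSCs they ran from 135 to 2510, against 517. The causes of these shifts were not tested. The replicate block (pairing by number) gave 0 calls among the 10 genes in edgeR in each comparison. Of the values of single genes under the alternatives, 527 kept direction and side of the threshold, 38 came to pass it, 6 no longer passed it and 29 turned direction.

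*Cdh5* and *Mcam* rest on as few as 9 counts in a library, and the spread between libraries also limits them. With 3 libraries a group, an adjusted p that misses the threshold does not show that levels are alike. The median log2 fold change over all genes between the fractions was -0.48 in DESeq2, on a wider set of genes, against -0.11 in edgeR. In edgeR with no filter on low counts it was -0.39.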
